A study of Saccharomyces cerevisiae with 6 samples.

Results

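The 10 histone genes of budding yeast (Saccharomyces cerevisiae) were examined for peaks of the transcription factors Pdr1 and Pdr3 in their promoters. The genes were chosen by name among 6002 nuclear protein-coding genes of the R64 gene table, and all 10 were found there. They are HTA1, HTB1, HTA2, HTB2, HHT1, HHF1, HHT2, HHF2, HHO1 and HTZ1, and they share 6 promoters. A gene was counted where the summit of a peak, its highest point, lay within 1000 bp upstream of the annotated start, which in this table is the start of the coding sequence.

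The study measured binding by CUT&RUN, in which an antibody on permeabilised nuclei recruits a nuclease that releases the DNA beside the bound protein. Cells had been grown in rich medium (YPD) at 30 °C, and the labels name no treatment. The strain labelled YRP10 gave 2 c-Myc antibody libraries for Pdr1, replicates 1 and 2. A single c-Myc library for Pdr3 came from the strain named Pdr3_3xmyc. No source used here gives the tag and genotype of YRP10, and the labels give different product codes for the c-Myc antibody in the antibody field and in the protocol. Control rabbit IgG libraries of both strains were not analysed here, so no background level of a control antibody stands beside the values. Nothing in the labels says whether the replicates were separate cultures.

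The replicate 1 list held 792 peaks, the replicate 2 list 485 and the Pdr3 list 7. Fold enrichment is the peak caller's own ratio for each peak, and what it is relative to is not stated. Its median was 4.86 in replicate 1 and 4.85 in replicate 2, and ranks by fold are given within 1 list, with rank 1 the strongest. Read depth is unknown. No significance test was made, since each list comes from 1 library, promoters are not replicates of one another, and no control list was used. The comparisons below are therefore descriptions.

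Nucleosomes, around which nuclear DNA is wrapped, are built from the core histones H2A, H2B, H3 and H4. In budding yeast each core histone is encoded by a pair of gene copies, arranged as divergent couples. An H2A gene faces an H2B gene (HTA1/HTB1 and HTA2/HTB2) and an H3 gene faces an H4 gene (HHT1/HHF1 and HHT2/HHF2), so that both genes of a couple are read away from a common promoter. The core genes are transcribed around S phase of the cell cycle, through upstream elements bound by Spt10, and all couples but HTA2/HTB2 are repressed outside that phase by the HIR complex. HHO1 encodes the linker histone H1, and HTZ1 the H2A variant H2A.Z, which marks nucleosomes beside promoters. Pdr1 and Pdr3 are known as activators of drug resistance genes such as PDR5, which encodes a drug-exporting membrane transporter, and PDR16, which encodes a lipid transfer protein.

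All 8 core histone genes had a Pdr1 summit upstream in replicate 1, and 6 of them had one in replicate 2 as well. HTA1 and HTB1 were the core genes without a replicate 2 summit. HTZ1 had a summit in its window in replicate 2 alone, and HHO1 had none in any list. No histone gene had a Pdr3 summit upstream. In all, 8 of the 10 histone genes had a summit in replicate 1, against 15.5% of all protein-coding genes. In replicate 2 the count was 7 of 10, against 10.2% of all genes. In both replicates it was 6 of 10, against 8.95%, and in the Pdr3 list 0 of 10, against 0.167%, which is 10 genes. Divergent genes share summits, so these 10 genes stand for 6 promoters, of which 3 had a summit within the histone window in both Pdr1 replicates. The counts were lower when weak peaks were left out. At a minimum −log10 q of 10, 4 histone genes were left in replicate 1 (against 12.3% of all genes), 3 in replicate 2 (against 8.18%) and 2 in both (HHT1 and HHF1, against 6.63%).

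**Figure D1:**
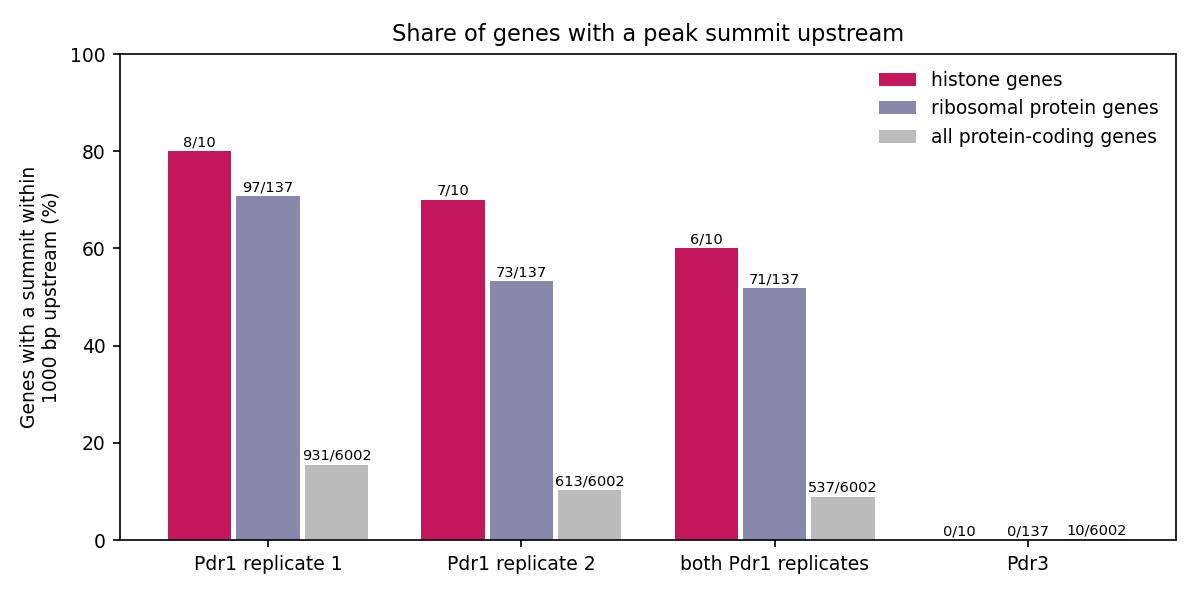
Share of genes (%) with a peak summit within 1000 bp upstream of the annotated start, for histone genes, ribosomal protein genes and all protein-coding genes, in each list and in both Pdr1 replicates. Numbers above the bars are genes with a summit and genes in the group. Histone genes stood at 8, 7, 6 and 0 of 10.

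The 4 core couples were separated by spaces of 646 to 817 bp between their annotated starts. These are longer than the median of the 1525 spaces between divergent protein-coding genes, which was 511 bp (quartiles 286 and 802 bp). A longer space leaves more room for a summit, so the couples were also set beside the 212 divergent spaces of 646 to 817 bp, to which they belong. Replicate 1 had a summit in all 4 core spaces, against 25.9% of these 212 spaces. Replicate 2 had one in 3 of 4, against 17.0%, and both replicates had one in 3 of 4, against 15.6%. Over divergent spaces of any length the shares were 17.6% in replicate 1, 12.6% in replicate 2 and 10.8% in both. A Pdr3 summit lay in none of the histone spaces, in 0.131% of all divergent spaces, and in 0 of the 212. A comparison restricted to length was chosen after the values were seen.

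HHT1/HHF1, a couple of H3 and H4 genes on chromosome II, carried the peaks with the highest fold enrichment of the histone promoters in both replicates. By −log10 q it led in replicate 1, while in replicate 2 the peak in the HTZ1 window was higher, at 13.1 against 11.3. The space runs from 255685 to 256330 between HHF1 (YBR009C, 255373 to 255684) and HHT1 (YBR010W, 256331 to 256741). The replicate 1 peak, at chrII:255792-256283, had a fold enrichment of 6.41 and a −log10 q of 23.0, and ranked 211 of 792. The replicate 2 peak, at chrII:255805-256214, had a fold enrichment of 4.65 and a −log10 q of 11.3, and ranked 260 of 485. In replicate 1 this was the only 1 of the 4 peaks in histone windows with a fold above the median of its list, and in replicate 2 none of the 4 had one. The replicate 2 peak lay wholly inside the replicate 1 peak, and the peaks covered 76.2% and 63.5% of the space. Their summits were 114 bp apart, at bases 256141 and 256027, the widest gap among the core couples. Summits lay 190 bp from the start of HHT1 and 457 bp from that of HHF1 in replicate 1, and 304 and 343 bp in replicate 2.

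HHT2/HHF2, the other couple of H3 and H4 genes, lies on chromosome XIV. HHT2 (YNL031C, 575640 to 576050) and HHF2 (YNL030W, 576727 to 577038) are separated by a space of 676 bp. Replicate 1 listed a peak at chrXIV:576144-576564 with a fold enrichment of 4.53, a −log10 q of 20.4 and rank 460. Replicate 2 listed one at chrXIV:576297-576634 with a fold enrichment of 3.37, a −log10 q of 9.20 and rank 419. The summits, at bases 576369 and 576351, were 18 bp apart, and lay 19.5 bp and 37.5 bp from the middle of the space. Both H3/H4 couples had a higher fold in replicate 1 than in replicate 2, with log2 ratios of replicate 1 to replicate 2 of 0.46 at HHT1/HHF1 and 0.43 at HHT2/HHF2. Fold values of separate lists are on no common scale that the sources state, so the peaks were also placed within their lists. At HHT2/HHF2, 41.9% of the replicate 1 peaks and 13.6% of the replicate 2 peaks had a lower fold. At HHT1/HHF1 the shares were 73.4% in replicate 1 and 46.4% in replicate 2.

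The H2A and H2B couples carried weaker peaks. HTA2 (YBL003C, 235394 to 235792) and HTB2 (YBL002W, 236492 to 236887) lie on chromosome II with a space of 699 bp. The replicate 1 peak, at chrII:236077-236280, had a fold enrichment of 2.94, a −log10 q of 6.95 and rank 732. The replicate 2 peak, at chrII:235942-236326, had a fold enrichment of 3.04, a −log10 q of 7.16 and rank 448. Only 7.58% of the replicate 1 peaks and 7.63% of the replicate 2 peaks had a lower fold. The position was nevertheless close between the lists: the summits, at bases 236209 and 236194, were 15 bp apart, and the replicate 1 peak lay wholly inside the replicate 2 peak.

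HTA1/HTB1, the couple on chromosome IV, was listed in replicate 1 alone. HTB1 (YDR224C, 914317 to 914712) and HTA1 (YDR225W, 915530 to 915928) are separated by 817 bp, the longest of the core spaces. The peak, at chrIV:914778-915026, had a fold enrichment of 2.89 and a −log10 q of 5.37. The weakest peak of that list had a −log10 q of 5.05, so this one lay just above the end of the list, at rank 738 by fold and 778 by −log10 q of 792. It was 1 of 3 replicate 1 peaks with exactly this fold and −log10 q. Its summit, at base 914883, was also the least central, 171 bp from the start of HTB1 and 647 bp from that of HTA1. That is 238 bp from the middle of the space, against 19.5 to 133.5 bp for the other core summits. As a share of the way from middle to edge it is 58.3%, against 5.77% to 41.3% for the other core summits of replicate 1. Over the 57 replicate 1 summits in divergent spaces as long as the core spaces, the median was 25.1% (quartiles 11.86% and 36.65%). Without read counts, a promoter with no peak in replicate 2 cannot be told from one that fell short of the list's threshold.

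**Figure D2:**
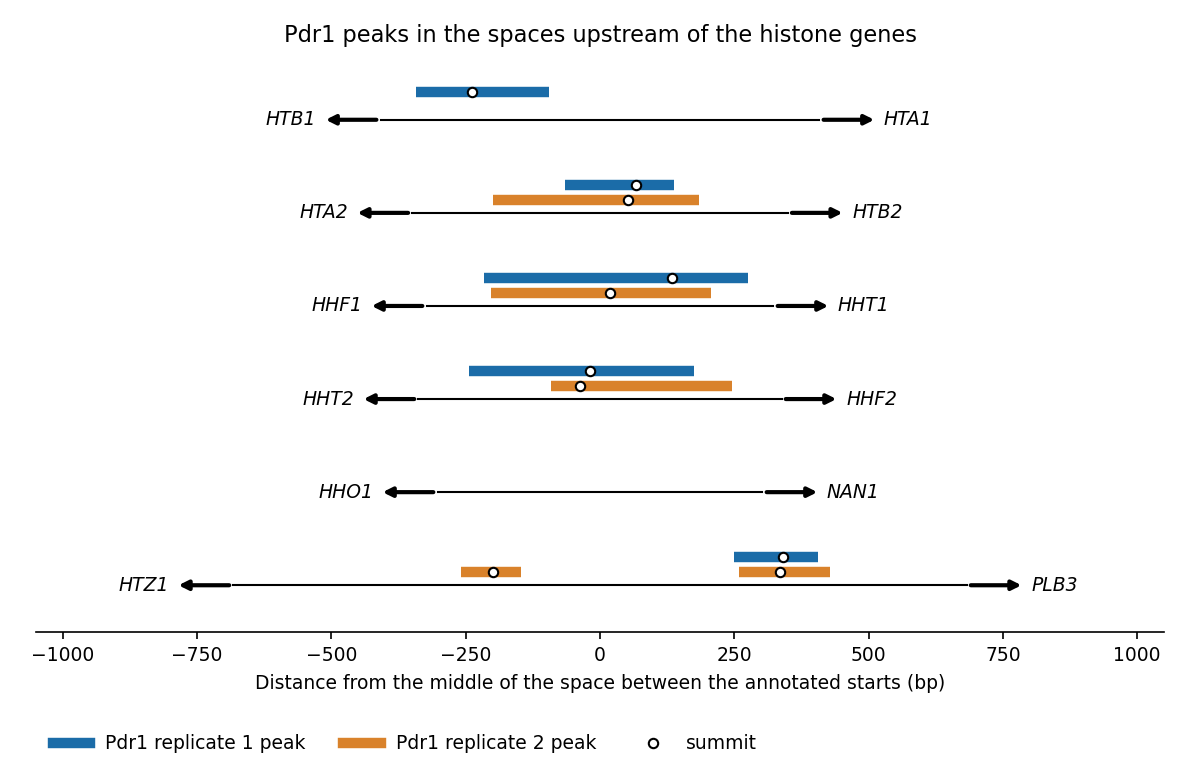
Pdr1 peaks (bars) and their summits (circles) in the 6 spaces upstream of the histone genes, drawn to scale by distance in bp from the middle of each space; arrows mark the annotated starts and the direction of transcription. Replicates overlap at HTA2/HTB2, HHT1/HHF1, HHT2/HHF2 and on the PLB3 side of HTZ1/PLB3, HHO1/NAN1 is empty, and no Pdr3 summit lies in any of these spaces.

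HHO1 and HTZ1 also have divergent promoters, each shared with a gene that encodes no histone. HHO1 (YPL127C) faces NAN1, which encodes a component of the machinery that processes ribosomal RNA, across 605 bp on chromosome XVI from 309605 to 310209. No list held a summit there, nor any peak overlapping the 1000 bp window. The nearest Pdr1 summits on the chromosome were 12402 bp away in replicate 1 and 12371 bp away in replicate 2, in a region upstream of GIP3 and ISU1.

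HTZ1 (YOL012C, 303579 to 303983) faces PLB3, which encodes a phospholipase B, across a space of 1365 bp on chromosome XV. That space is longer than 90.4% of divergent spaces. The replicate 2 peak in the HTZ1 window, at chrXV:304408-304519, was 112 bp wide with a fold enrichment of 4.38, a −log10 q of 13.1 and rank 293. Its summit lay 484 bp from the start of HTZ1 and 882 bp from that of PLB3, and thus inside the windows of both genes. Replicate 1 had no peak at this position. Both replicates had a further peak nearer to PLB3, with summits 5 bp apart at bases 305006 and 305001. These summits were 1023 and 1018 bp from the start of HTZ1, just outside its window, and 343 and 348 bp from that of PLB3. Fold enrichment was 3.05 (rank 714) for the replicate 1 peak and 3.40 (rank 417) for the replicate 2 peak. Whether HTZ1 counts as having a summit in both replicates therefore rests on where the window ends: with 1100 bp it does, and the count for both replicates becomes 7 of 10, against 9.21% of all genes.

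Set side by side, the core couples had a shared Pdr1 region at 3 of 4 promoters, and the promoters of HHO1 and HTZ1 at 1 of 2, on the PLB3 side and outside the HTZ1 window. With 4 promoters and 2, no test of this difference is possible. For scale, both replicates had a summit in 10.8% of all 1525 divergent spaces, and in 15.6% of the 212 as long as the core spaces. The spaces of HTZ1/PLB3 (1365 bp) and HHO1/NAN1 (605 bp) lie outside that range of lengths, and no share is given for theirs. Peaks on the core couples were wider, at 204 to 492 bp, than those between HTZ1 and PLB3, at 112 to 171 bp. Median peak widths were 257 bp in replicate 1 and 230 bp in replicate 2. In the order of fold enrichment the couples stood the same way in both replicates, with HHT1/HHF1 first, HHT2/HHF2 next and HTA2/HTB2 after it, and HTA1/HTB1 last in replicate 1. In replicate 1 the folds of HTA2/HTB2 and HTA1/HTB1, at ranks 732 and 738, were close, and a single list gives no spread by which to separate them.

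**Figure D3:**
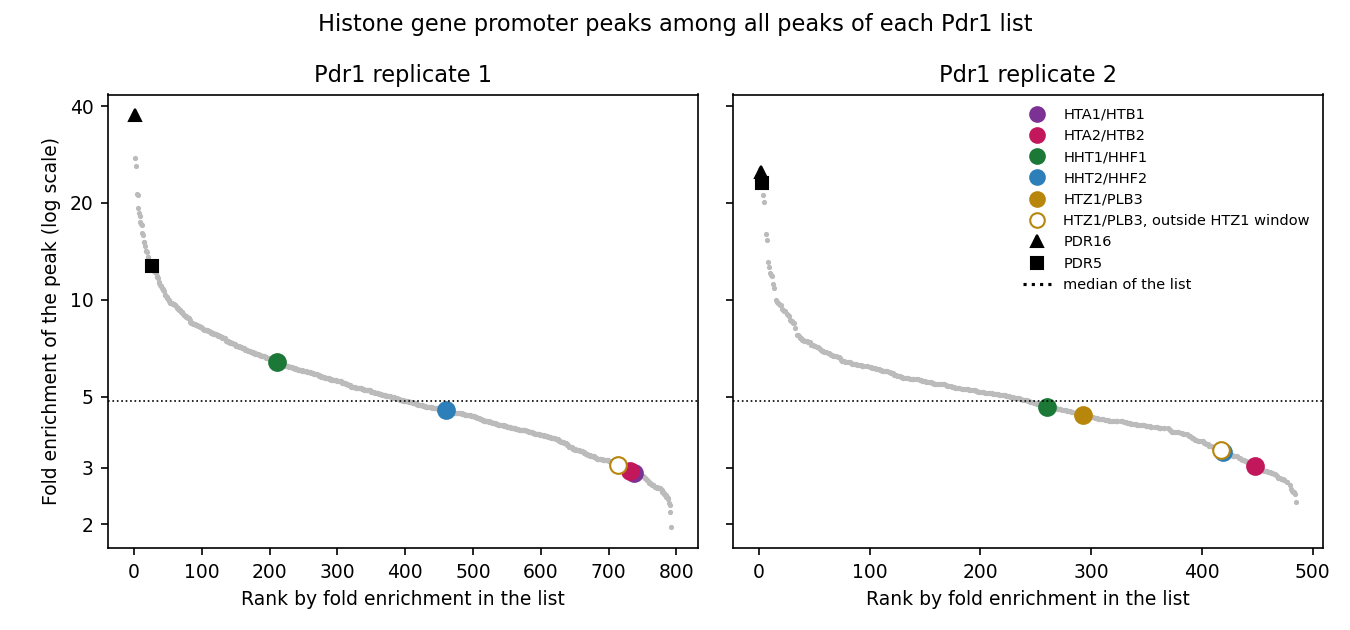
Fold enrichment (log scale) of every peak against its rank in the Pdr1 replicate 1 and replicate 2 lists (grey), with the peaks in the histone spaces, PDR16 (triangle) and PDR5 (square) marked. Histone peaks run from rank 211 to 738 of 792 in replicate 1 and from rank 260 to 448 of 485 in replicate 2; open circles lie outside the HTZ1 window.

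The drug resistance genes give the scale of these lists. PDR16 reached a fold enrichment of 37.5 in replicate 1, against 25.04 in replicate 2, and PDR5 reached 12.8 in replicate 1, against 23.1 in replicate 2. Peaks in the windows of histone genes ranged from 2.89 to 6.41 in replicate 1 and from 3.04 to 4.65 in replicate 2. The median rank of the 4 such peaks in each list was at 75.3% of the list in replicate 1 and at 73.4% in replicate 2, counted from the strongest. Ranked by −log10 q, the median was at 66.3% in replicate 1 and at 76.4% in replicate 2. At a minimum −log10 q of 10, fewer histone peaks were left. Their median rank by fold among such peaks was at 54.4% in replicate 1 and at 72.8% in replicate 2. Ribosomal protein genes, another class of strongly transcribed genes, were set beside them. Of 137 such genes chosen by name, 97 (70.8%) had a summit upstream in replicate 1, 73 (53.3%) in replicate 2, 71 (51.8%) in both and 0 in the Pdr3 list. The strongest upstream peak of a ribosomal protein gene had a median fold of 4.63 in replicate 1 and 4.71 in replicate 2, where the same median over histone genes was 3.74 and 3.37. These medians are over genes, so a peak shared by a histone couple entered once for each of its genes. Listed once each, the histone window peaks had folds of 2.89, 2.94, 4.53 and 6.41 in replicate 1. In replicate 2 they were 3.04, 3.37, 4.38 and 4.65. These are values side by side, with no test of a difference between the classes.

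Merging overlapping peaks of both replicates gave 409 shared Pdr1 regions, of which 170 had their replicate 1 summit between divergent genes. By mean rank in both lists, HHT1/HHF1 held position 155, HHT2/HHF2 330, the HTZ1/PLB3 region 391 and HTA2/HTB2 403 of 409. Among the 170 divergent regions the positions were 65, 135, 161 and 168. The replicate summits of 3 of these 4 regions were 5 to 18 bp apart and those of HHT1/HHF1 114 bp, where the median over all 409 was 27 bp (quartiles 10 and 68 bp).

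**Figure D4:**
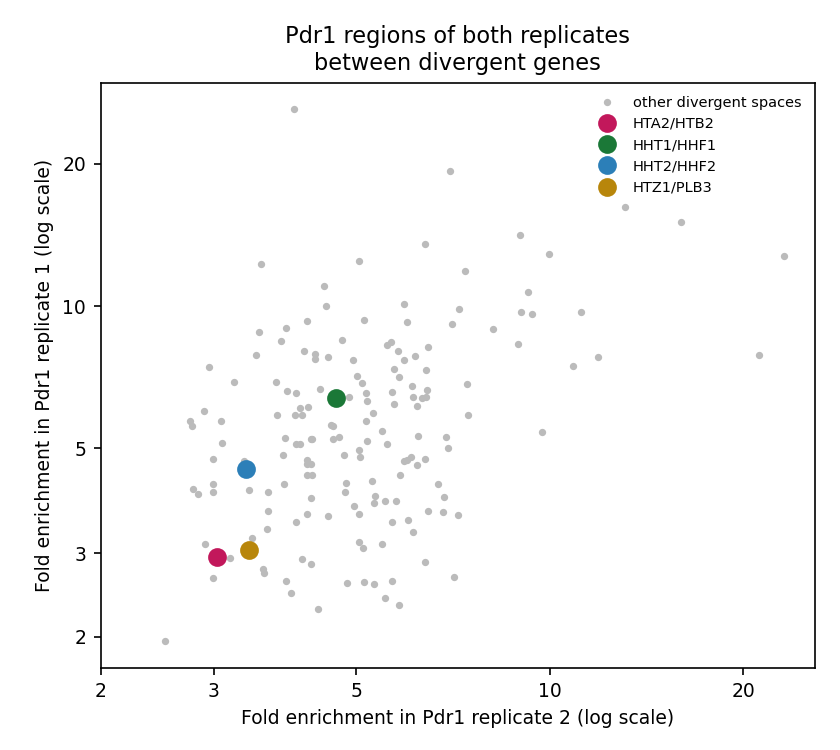
Fold enrichment in Pdr1 replicate 1 against replicate 2 (both log scales) for the 170 shared regions between divergent genes, with those of the histone spaces in colour. HTA2/HTB2 and HTZ1/PLB3 lie near the weak end of both axes, and HHT1/HHF1 lies at 6.41 and 4.65.

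The divergent regions most like each histone region were taken by the distance between their log2 fold enrichments in the 2 Pdr1 lists. HHT1/HHF1 was nearest to a region in PST2/MRH1 (folds of 6.42 in replicate 1 and 4.87 in replicate 2) and a region in RPI1/RHO3 (6.68 and 4.39). Both of these spaces also held other shared regions with different folds, such as 3.69 and 3.64 in PST2/MRH1. HHT2/HHF2 was nearest to AGP1/KCC4 (4.70 and 3.35) and GNP1/SMT3; AGP1 and GNP1 encode amino acid permeases. HTA2/HTB2 was nearest to ADP1/PGK1 (2.94 and 3.18), where PGK1 encodes a glycolytic enzyme, and CPR1/RPA14. The HTZ1/PLB3 region was nearest to PIR1/PIR3, which encode cell wall proteins, and to ADP1/PGK1. Likeness over 2 lists describes peak strength alone.

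Genes that act on histones were looked at in the same way. Of 15 regulators of histone genes, 1 had a summit upstream in replicate 1 (6.67%, against 15.5% of all genes), and 0 had one in replicate 2 (against 10.2%) or in the Pdr3 list (against 0.167%). That gene was ASF1 (YJL115W), which encodes a histone H3/H4 chaperone. Its peak, at chrX:195415-195755, had a fold enrichment of 6.05 and rank 242, and its summit, 836 bp from the start of ASF1, also lay in the window of NCA3. Among those without a summit in any list were the HIR complex genes HIR1, HIR2, HIR3 and HPC2, the histone gene activators SPT10 and SPT21, and the cell-cycle regulators SWI4, SWI6 and MBP1. Of 15 chaperones, assembly factors and modifiers of new histones, among them NAP1, the FACT subunits SPT16 and POB3, RTT109 and SWR1, 0 had a summit in any list, against the same shares of all genes. No test of these shares was made, and nothing is read from a count of 0 or 1 in lists of 15. CSE4, which encodes the centromeric form of histone H3, had none either.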

How the data were processed

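Deposited peak lists of 3 c-Myc CUT&RUN libraries were used, 1 list per sample and without header. Per the submitters' processing notes, the tools named are Trimmomatic 0.33, Bowtie2, Picard, deepTools and MACS2 2.1.1, and the builds R64 and sacCer3. The sources used here do not give their roles and settings, how IgG and spike-in reads entered, or how reads matching several places were treated. The deposited fold enrichment (column 7) was read as a linear ratio. The deposited −log10 q was used to filter and rank peaks, and the −log10 p was not used. The deposited score was not used on its own.

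Starts, ends and summits (column 2 plus column 10) are counted from 1. Gene models came from RefSeq's R64 table, with the strand read from the systematic name. A space is the stretch between adjacent divergent protein-coding genes. Overlap meant at least 1 bp. The assignment of summits to windows was checked on simulated data. Calculations used Python 3.11.15, pandas 2.3.3 and numpy 2.4.6.

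The genes, the lists and the rule for named genes were chosen with earlier results of these data known. The rule named the 10 histone genes, genes whose windows hold their summits, their divergent neighbours, regulators with a summit in both Pdr1 replicates, the 2 most alike divergent regions, PDR5 and PDR16. ASF1, the further genes of the regulator and chaperone lists, and the genes next to HHO1's nearest peak were named after their values were seen. Alternatives were 500 bp windows, windows ended at the neighbouring gene, a −log10 q of at least 10, peak overlap, summits moved by 100 bp, single replicates and summits within 100 bp. The planned search for motifs was left out, since the analysis had no sequence to search.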

Additional observations from a re-analysis of the deposited data

How the results depend on the processing

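Of 55 recomputed counts, shares and median ranks, 48 stayed within 1.5 times the reported value. This tally includes Pdr3 counts of 0 set against 0. The main counts of 8 of 10 in replicate 1 and 7 of 10 in replicate 2 had no room to rise by that factor. The stricter −log10 q of at least 10 moved the counts most. It left 4 histone genes in replicate 1 (HHT1, HHF1, HHT2 and HHF2), against 12.3% of all genes, and 3 in replicate 2 (HHT1, HHF1 and HTZ1), against 8.18%. In both replicates it left 2 genes (HHT1 and HHF1), against 6.63%, which is 1 promoter. Fewer peaks enter by construction: 599 in replicate 1 and 379 in replicate 2. With 500 bp windows HTA1 was lost in replicate 1, which left 7 of 10 against 10.8% of all genes. The other histone counts stayed as they were with 500 bp windows, at 7 of 10 in replicate 2, 6 of 10 in both replicates and 0 of 10 in the Pdr3 list. The share of all genes fell to 6.48% in replicate 2, 5.28% in both replicates and 0.1% in the Pdr3 list. Requiring replicate summits within 100 bp removed HHT1/HHF1, which left 4 genes, against 7.55% of all genes, and 2 promoters. Peak overlap, 1100 bp windows (chosen after the data were seen) or summits moved 100 bp lower added HTZ1 in replicate 1. Each of these settings gave 9 of 10 in replicate 1, against 17.0%, 16.1% and 15.7% of all genes in that order. From 1 replicate alone the count became 8 genes with replicate 1, against 15.5% of all genes, and 7 with replicate 2, against 10.2%. Either replicate gave 4 promoters. The Pdr3 count was 0 under each setting run.

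No paired analysis was possible because only the Pdr1 c-Myc and IgG groups share replicate numbers, and the IgG libraries were not analysed here. Unknown depth limits what an absent peak shows.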

Other observations

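The nearest peaks outside the histone spaces are given here for the core couples, with genes named after their peaks were seen. Between HHF1 and its neighbour FLR1, which encodes a drug-exporting transporter, replicate 1 listed a separate peak at chrII:255009-255142 with a fold enrichment of 4.04 and rank 546. Its summit lay 570 bp from the HHT1/HHF1 space, on the far side of the HHF1 coding region, and inside the FLR1 window. Replicate 2 had no peak there, and its nearest other summit was 4290 bp from the space, upstream of DSF2. From the HTA2/HTB2 space, the nearest other Pdr1 summits were 14422 bp away in replicate 1 and 14318 bp away in replicate 2, and lay in no gene's upstream window. The nearest Pdr3 summit, upstream of PDR3, SLA1 and LDB7, was 18528 bp away. The HTA1/HTB1 space had its nearest other Pdr1 summits 5081 bp away in replicate 1, upstream of YDR222W, and 20642 bp away in replicate 2, upstream of ADR1. For HHT2/HHF2 they were 25776 bp away in replicate 1 and 25701 bp away in replicate 2, both upstream of PUB1 and YNL018C.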
